A study of Macaca mulatta with 64 samples.

Results

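The dentate gyrus (DG) of 10-20-yr-old rhesus macaques was compared with that of 1-4-yr-old macaques by cap analysis of gene expression (CAGE-seq), which counts tags at the 5′ ends of RNA molecules and so gives the positions at which RNAs start. The older class held 4 libraries, labelled as a 10-yr female, a 10-yr male, a 20-yr female and a 20-yr male. The younger class held 4 libraries, labelled as a 1-yr female, a 1-yr male, a 4-yr female and a 4-yr male. The study sampled 2 females and 2 males at each age and states for its RNA-seq that 1 library stood for a pair of animals, and whether each CAGE library also holds RNA of 2 animals is not stated. These 8 DG libraries belong to a set of 64 from 8 brain regions. The animals are labelled healthy and socially housed, and tissue pieces were cut out after death, so each library mixes all cell types of the region. No age and sex had a second DG library, so p-values rest on the spread between single libraries within a class, which also differ in age. The gene fits take out a mean difference between the sexes and estimate the spread of a gene partly from all genes.

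The DG is the part of the hippocampus that receives cortical input first and passes it on to CA3. Its main cells are granule neurons, whose axons are the mossy fibers. New granule neurons are added after birth in mammals, at a rate that declines with age, and the tissue also holds interneurons, astrocytes, oligodendrocytes and microglia. A start position with its tags is called a TC here, and its level is given in tags per 1000000 tags of the library (TPM), without any correction for length. A gene's level is the TPM of its TCs added up. The genes tested were those that reached 1 TPM in 4 or more of the 8 DG libraries, that is 1897 of the 13269 genes listed in any of the 64 libraries and of the 6199 listed in any DG library. Of the 1897 genes, 358 were listed in all 8 libraries, and these held 58.2% of the listed DG tags. A further 518 genes passed at the limit, with a value in exactly 4 libraries and a median of 38.5 TPM, and 700 genes listed in exactly 3 libraries, with a median of 22.5 TPM, fell just outside.

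The DG libraries held between about 3230000 and 3830000 tags at 10-20 yr and between about 2760000 and 5470000 tags at 1-4 yr. The number of genes listed ranged from 1238 (20-yr male) to 3898 (10-yr male) at 10-20 yr and from 1422 (1-yr female) to 2392 (1-yr male) at 1-4 yr. Hence the 20-yr male and 1-yr female libraries, the deepest of their classes, listed the fewest genes. Each of these libraries also left many tested genes at 0, 50.4% in the 20-yr male and 43.7% in the 1-yr female. Of all values of tested genes, 27.7% were 0, among them values of ribosomal protein genes that every cell uses, so a 0 is given below as listed at 0 and is not read as absence. Spearman's correlation between 2 DG libraries ranged from 0.278 to 0.470 across the tested genes, with a median of 0.338 within an age class and 0.348 across classes.

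**Figure D1:**
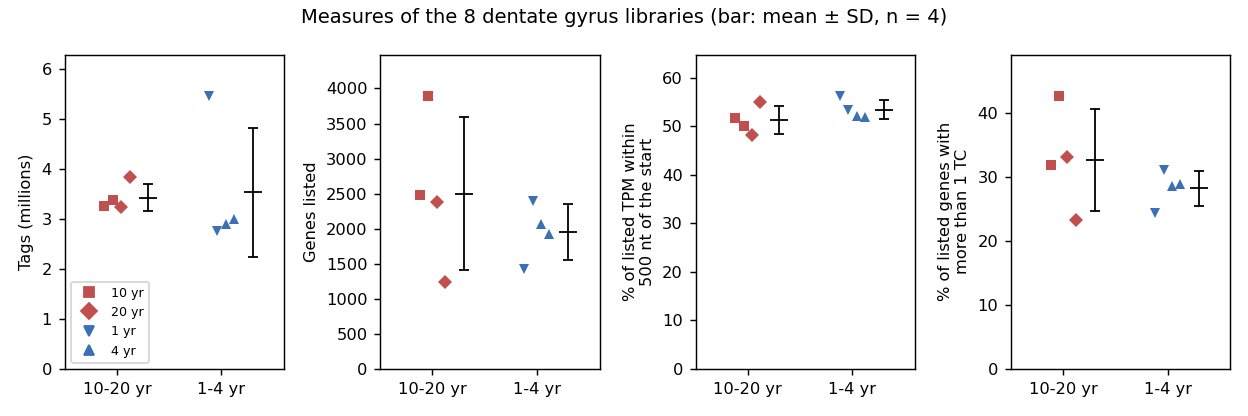
Tags, genes listed, share of TPM near the annotated start and share of genes with more than 1 TC in each DG library, 10-20 yr left and 1-4 yr right, with the mean ± SD of 4 libraries as a bar. The classes overlap in all 4 measures, and the 20-yr male (1238 genes) and 1-yr female (1422 genes) lie at the bottom of the panel of genes listed.

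The regional label was checked against marker genes. CALB1, which encodes the calcium buffer calbindin of granule neurons, had a median of 354 TPM in DG against 35.3 TPM in CA1, with 7 of 8 libraries listed in both. C1QL2, a secreted synapse organizer of mossy fibers, had a median of 115 TPM in DG and 29.6 TPM in CA1. Neither gene was particular to DG in the whole series. CALB1 averaged 1236 TPM at 10-20 yr and 1289 TPM at 1-4 yr in the cerebellar cortex. C1QL2 averaged 0.345 and 259 TPM in the posterior cingulate cortex, against 68.5 and 133 TPM in DG, in the same order of classes. PROX1, the transcription factor that defines granule neurons, was listed at 0 in all 8 DG libraries and in only 1 of the 64 libraries, and DSP, C1QL3, RFX3, PPFIA2 and DOCK10 were also listed at 0 throughout DG. NEUROD2, a neuronal transcription factor, was lower in DG (median 3.08 TPM) than in CA1 (53.4 TPM). Thus 2 of the 12 granule markers in the table stood higher in DG than in CA1, and 6 were at 0 in DG. The CA1 libraries held about 3130000 to 6090000 tags and listed 3805 to 8143 genes each, against 1238 to 3898 genes in DG. A 0 or a low value in DG beside CA1 is therefore not read as regional. No CA1 pyramidal marker passed the filter. The 6 oligodendrocyte precursor markers in the table, of 8 chosen, were listed at 0 in every DG library. Of 5 blood markers only ALAS2, and no hemoglobin gene, was in the table, and ALAS2 was listed at 0 in DG. The 5 of 12 markers of choroid plexus, ependyma and meninges in the table summed to at most 3.26 TPM. TTR and PTGDS were not among them, so blood and choroid plexus could hardly be judged.

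The main question was which genes differ in the DG between the age classes. No gene passed an adjusted p of 0.05 in limma (0 of 1897, 0%), and the smallest adjusted p was 0.262. With an intensity trend in the variance estimate of limma, 4 genes passed, RPS14, RTF1, ENSMMUG00000016765 and UQCC2, named after their values were seen. Their log2 estimates were all lower at 10-20 yr, but RTF1 averaged 3933 TPM at 10-20 yr and 4072 TPM at 1-4 yr. At an unadjusted p under 0.05 there were 107 genes (5.64%), 74 of them higher at 10-20 yr (3.9%) and 33 lower (1.74%). In 57 genes (3%) the 2 classes did not overlap, that is, all 4 libraries of 10-20 yr lay above (36 genes, 1.9%) or below (21 genes, 1.11%) all 4 of 1-4 yr. Of the 107 genes, 104 were listed at 0 in at least 1 library. Of the 33 genes that were lower, 28 were at 0 in the 20-yr male, and of the 74 that were higher, 63 were at 0 in the 1-yr female. The part of these 2 libraries in the counts was examined by leaving both out, which gave 136 genes at an unadjusted p under 0.05 and again 0 at the adjusted threshold. The median difference of all tested genes was 0.19 on the log2(TPM + 1) scale, 10-20 minus 1-4 yr, with 1036 estimates above 0 and 861 below.

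**Figure D2:**
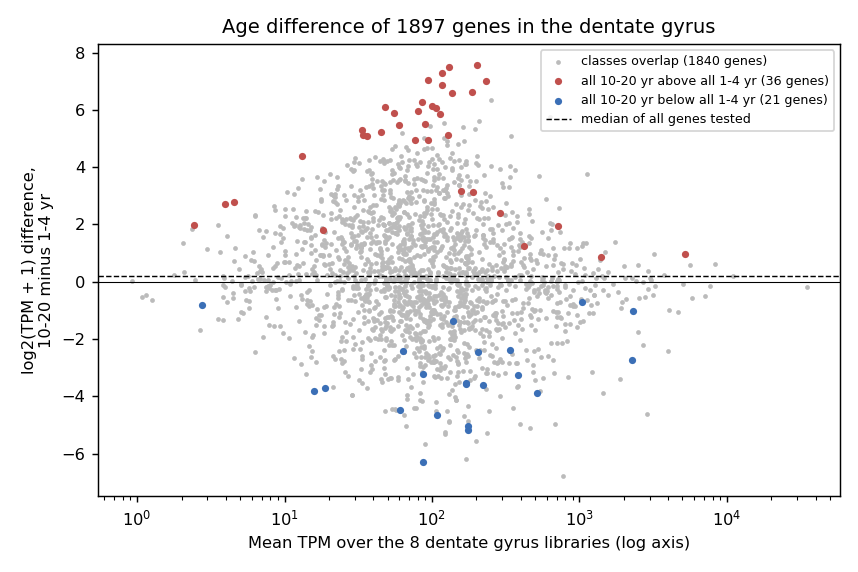
Difference in log2(TPM + 1), 10-20 minus 1-4 yr, of each of the 1897 tested genes (1 point each) against its mean TPM over the 8 DG libraries on a log axis. The 36 genes whose 10-20-yr libraries all lie above are red, the 21 whose 10-20-yr libraries all lie below are blue, and differences narrow around the median of 0.19 at high TPM.

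The replicate spread set a wide limit on what could be seen. The median within-class SD was 2.98 on the log2 scale over all tested genes and 1.29 over the 358 genes listed in all libraries, against 0.0615 expected from counting tags alone, which covers counting error only. In 357 of these 358 genes the spread exceeded the counting error. The 95% interval of a difference reached 4.39 log2 units to each side of the estimate for the median gene and 3.11 for the median gene listed in all libraries, a factor of 8.64. A smaller estimated age difference in a gene of typical spread could therefore not be told from no difference at this size of sample. The intervals are not adjusted for the number of genes tested, so larger differences could also be missed at the adjusted threshold. GUK1, with a difference of 7.49 log2 units, did not pass it (adjusted p = 0.262 in limma).

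The genes with no overlap between classes and the smallest p are given next as values, since none passed the adjusted threshold. GUK1, guanylate kinase, which converts GMP to GDP, had 268, 99.0, 143 and 539.9 TPM in the 10-yr female, 10-yr male, 20-yr female and 20-yr male, against 1.00 TPM in the 4-yr male and a listed 0 in the other 3 libraries of 1-4 yr. The difference was 7.49 ± 1.30 (SE) on the log2(TPM + 1) scale with an adjusted p of 0.262, and depends on the pseudocount because of the 0 values. SEC62, a subunit of the channel that moves new proteins into the endoplasmic reticulum, had 115, 121, 300.3 and 212 TPM in the same order, against 2.06 TPM in the 4-yr female and 0 in the others. All 4 older libraries held at least 99.0 TPM of GUK1 and 115 TPM of SEC62, while no younger library held more than 2.06 TPM of these genes.

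ATPAF2, an assembly factor of the mitochondrial ATP synthase, had 33.4 (10-yr female), 123 (10-yr male), 255 (20-yr female) and 523 TPM (20-yr male), and was listed at 0 in all libraries of 1-4 yr. PEX26, which anchors the import machinery of peroxisomes, had 338, 239, 15.2 and 1022 TPM in that order and was likewise listed at 0 at 1-4 yr. RUSF1 had 101, 40.8, 21.3 and 223 TPM and was listed at 0 in the younger class. No fold change can be given for these 3 genes. They belong to 8 genes that were listed in all 4 older and in no younger library, and the converse held for 1 gene, RPS16. Both counts come from the 518 tested genes with a value in exactly 4 libraries. Genes listed in 1 class only passed the filter through that class alone, so these counts are not read as a result on age. MRPS9, a protein of the small subunit of the mitochondrial ribosome, had 145, 225, 229 and 80.9 TPM at 10-20 yr, against 1.46 (1-yr female), 0 (1-yr male), 1.72 (4-yr female) and 1.67 TPM (4-yr male). SF3B2, a component of the spliceosome, had 247, 44.0, 444 and 194 TPM at 10-20 yr, against 4.35 TPM in the 1-yr male and 0 elsewhere. Among these 5 genes the highest older library held between 2.83 (MRPS9) and 67.4 times (PEX26) the TPM of the lowest older library.

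STX8, a SNARE protein of late endosomes, had 920.5, 213, 363 and 292 TPM at 10-20 yr, against 75.3 TPM in the 4-yr female and 0 in the other 3 younger libraries. NSG1, a neuronal endosomal protein that takes part in the recycling of AMPA receptors, had 38.0, 81.9, 218 and 99.7 TPM at 10-20 yr, against 5.07 TPM in the 1-yr male and 0 elsewhere. DPF1, a subunit of the BAF chromatin remodelling complex of neurons, had 29.1, 87.2, 593 and 372 TPM, against 5.84 TPM in the 4-yr female and 0 elsewhere. PITHD1 ranged from 127 to 538 TPM at 10-20 yr and from 0 to 31.6 TPM at 1-4 yr. CTBP1, a transcriptional corepressor, ranged from 61.8 to 422 TPM at 10-20 yr and from 0 to 6.88 TPM at 1-4 yr. Adjusted p-values of the 12 genes were between 0.262 and 0.385 in limma.

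The 12 genes lower at 10-20 yr follow, beginning with RPLP2 and RPS16, which encode ribosomal proteins. RPLP2, a protein of the ribosomal stalk, had 21.8, 58.8, 30.6 and 87.5 TPM in the 10-yr female, 10-yr male, 20-yr female and 20-yr male, against 281, 2388, 288 and 957 TPM in the 1-yr female, 1-yr male, 4-yr female and 4-yr male. It was listed in all libraries, and its difference was -3.89 ± 1.26 (SE) on the log2 scale with an adjusted p of 0.690 in limma. The lowest younger library thus held 3.21 times the TPM of the highest older library. RPS16, of the small ribosomal subunit, was listed at 0 in all 4 older libraries, against 27.6, 1.09, 90.8 and 6.33 TPM in the younger ones.

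TMEM183A had 24.2, 14.5, 4.33 and 0 TPM at 10-20 yr, against 66.0, 425, 165 and 166 TPM at 1-4 yr, in the same order of libraries. BSCL2, which encodes seipin, a protein of lipid droplet formation, had 0, 42.9, 104 and 0 TPM, against 493, 198, 228 and 332 TPM. DNAL4, an axonemal dynein light chain, had 29.1, 0, 4.33 and 0 TPM, against 89.2, 287, 33.3 and 42.0 TPM. In these 3 genes the 20-yr male was at 0, as in 50.4% of all tested genes. VPS4A, the ATPase that recycles the ESCRT machinery of membrane scission, had 1.53, 78.9, 189 and 244 TPM, against 277, 504.2, 425 and 1329 TPM. NR1H2, a nuclear receptor for oxysterols, had 113, 192, 66.5 and 68.9 TPM, against 728, 745, 543 and 264 TPM. TPT1, the translationally controlled tumor protein, had 92.3, 24.3, 78.9 and 35.8 TPM, against 112, 279, 787 and 238 TPM. These 3 were listed in all 8 libraries, at differences of -3.26, -2.39 and -2.44 on the log2 scale. With only the TCs within 500 nt of the annotated start, which held 8.29% of its TPM, the estimate for NR1H2 was 1.98. YBX1, an RNA-binding protein, ranged from 0 to 148 TPM at 10-20 yr and from 235 to 600.4 TPM at 1-4 yr. YAF2, a partner of Polycomb complexes, ranged from 4.91 to 28.1 TPM and from 64.3 to 395 TPM, CCDC167 from 0 to 181 TPM and from 214 to 370.1 TPM, and ARHGAP32 from 0 to 7.68 TPM and from 16.8 to 69.6 TPM, at 10-20 and 1-4 yr in each case. Adjusted p-values of the 12 genes were between 0.690 and 0.867.

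**Figure D3:**
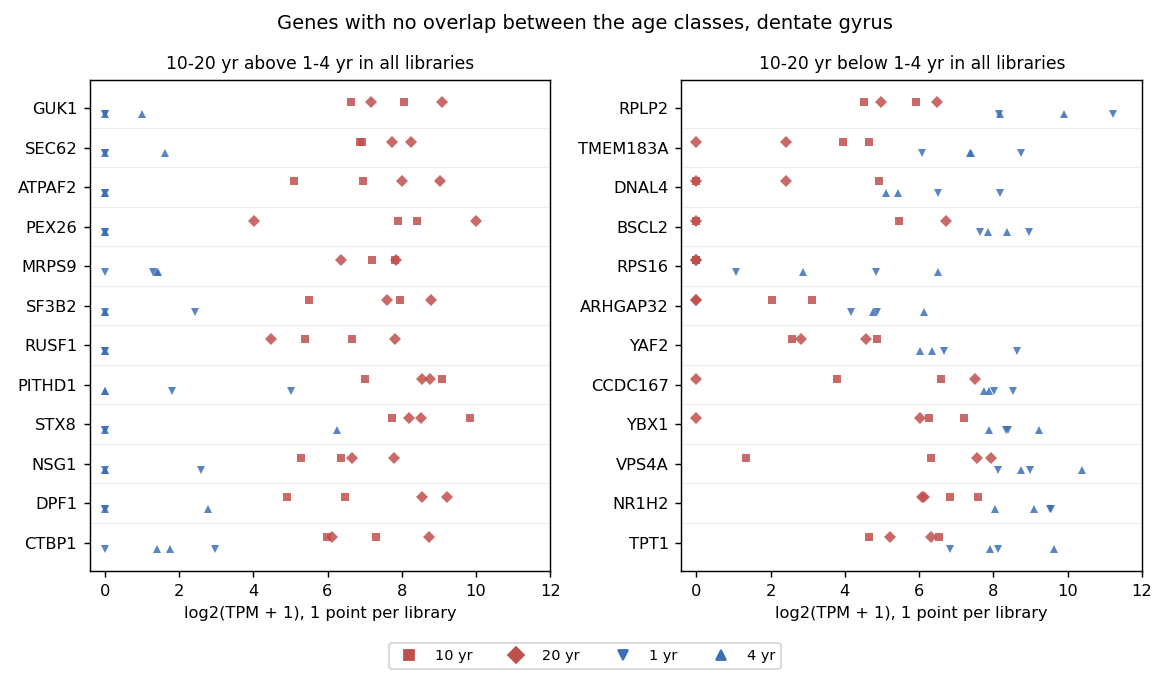
log2(TPM + 1) of the 12 genes higher (left panel) and 12 genes lower (right panel) at 10-20 yr that had the smallest p among genes with a symbol, no overlap and a mean of at least 10 TPM in the higher class. Each point is 1 library, red for 10 and 20 yr and blue for 1 and 4 yr. On the left most blue points lie at 0, and on the right RPS16 has all red points at 0.

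The listed TC positions behind these sums differed from library to library. Over the tested genes, 77.3% of the 14462 TCs listed in DG were found in a single DG library, and these TCs held 27.3% of the TPM. Starts were joined within each library, so starts a few nt apart in different libraries count as separate TCs. In STX8, for example, TCs were listed 103, 116, 122 and 128 nt after the start. These shares are therefore not read as different start sites. Among the 24 genes above, the largest TC was found in a single library in 6 genes and in all 8 libraries in none. The largest TC of GUK1 lay at position 142241398 on chromosome 1, 18 nt before the annotated start of the gene (142233394 to 142241380, minus strand), and was listed in DG only in the 20-yr male, at 539.9 TPM. The other older libraries had GUK1 tags chiefly between 5304 and 5898 nt after the start. For MRPS9 the largest TC lay 53436 nt after the start, at position 104997187 on chromosome 13, held 81.1% of the gene's TPM and was listed in all 4 older and 2 younger libraries. RPS16 had 1 TC, at its annotated start (position 45782448, chromosome 19). The largest TC lay within 500 nt of the annotated start in 5 of the 12 genes that were higher and in 7 of the 12 that were lower. RPLP2 had its tags near the start, but the largest TC, 14 nt after it, was listed only in the 1-yr male (2062 TPM), and a TC 46 nt before the start was listed in 1 older library (21.8 TPM) and 3 younger ones (99.7, 281 and 115 TPM). Positions are given as listed, and the study's methods name the build MMUL 1.0.

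Abundant genes are described next. SYP encodes synaptophysin, a membrane protein of synaptic vesicles, and was listed at 6376, 6018, 9489 and 5643 TPM in the 10-yr female, 10-yr male, 20-yr female and 20-yr male, against 2465, 3782, 3211 and 4826 TPM in the 1-yr female, 1-yr male, 4-yr female and 4-yr male. The means were 6882 ± 1764 TPM and 3571 ± 996 TPM (SD, n = 4 each), and every older library lay above every younger one. The limma difference was 0.96 on the log2 scale (95% interval -1.83 to 3.74) with an adjusted p of 0.966, in a test that estimates the spread of a gene partly from all genes. SYT5, a synaptotagmin, was likewise without overlap, with 1640.2, 2384, 1580.4 and 1531 TPM against 949.8, 1272, 541 and 1360.1 TPM. SNCB, beta-synuclein of presynaptic terminals, had 7384, 5145, 7993 and 6194 TPM, against 4461, 3421, 3928 and 6329 TPM, and overlapped through the 4-yr male. HPCA, hippocalcin, a calcium sensor of hippocampal neurons, averaged 3117 ± 348 TPM and 2931 ± 772 TPM.

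GAP43, a growth cone protein, had its values in the opposite order, with 5289, 2111, 4297 and 1448 TPM at 10-20 yr against 7455, 5773, 6715 and 4266 TPM at 1-4 yr. The means were 3286 ± 1807 TPM and 6052 ± 1375 TPM (SD, n = 4 each), the classes overlapped through the 10-yr and 20-yr females, and the difference was -1.04 (95% interval -3.82 to 1.74, adjusted p = 0.966 in limma). CLU, clusterin, a secreted chaperone made by astrocytes, had 13653, 12717, 9263 and 5341 TPM against 6169, 7322, 4916 and 6997 TPM. S100A1, a calcium-binding protein, averaged 2951 ± 1905 TPM and 5200 ± 1409 TPM, and GPX4, the peroxidase that reduces lipid peroxides, 6037 ± 2366 TPM and 8136 ± 2198 TPM. MBP, myelin basic protein, had between 723 and 4047 TPM at 10-20 yr and between 2138 and 3451 TPM at 1-4 yr. HYPK and NEURL4 had the highest TPM of all genes tested, at 32853 ± 6601 and 36808 ± 4545 TPM for HYPK and 11789 ± 1710 and 10120 ± 1207 TPM for NEURL4. SYT5, S100A1, HYPK and NEURL4 lie outside the rule for named genes and were chosen after their values were seen.

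**Figure D4:**
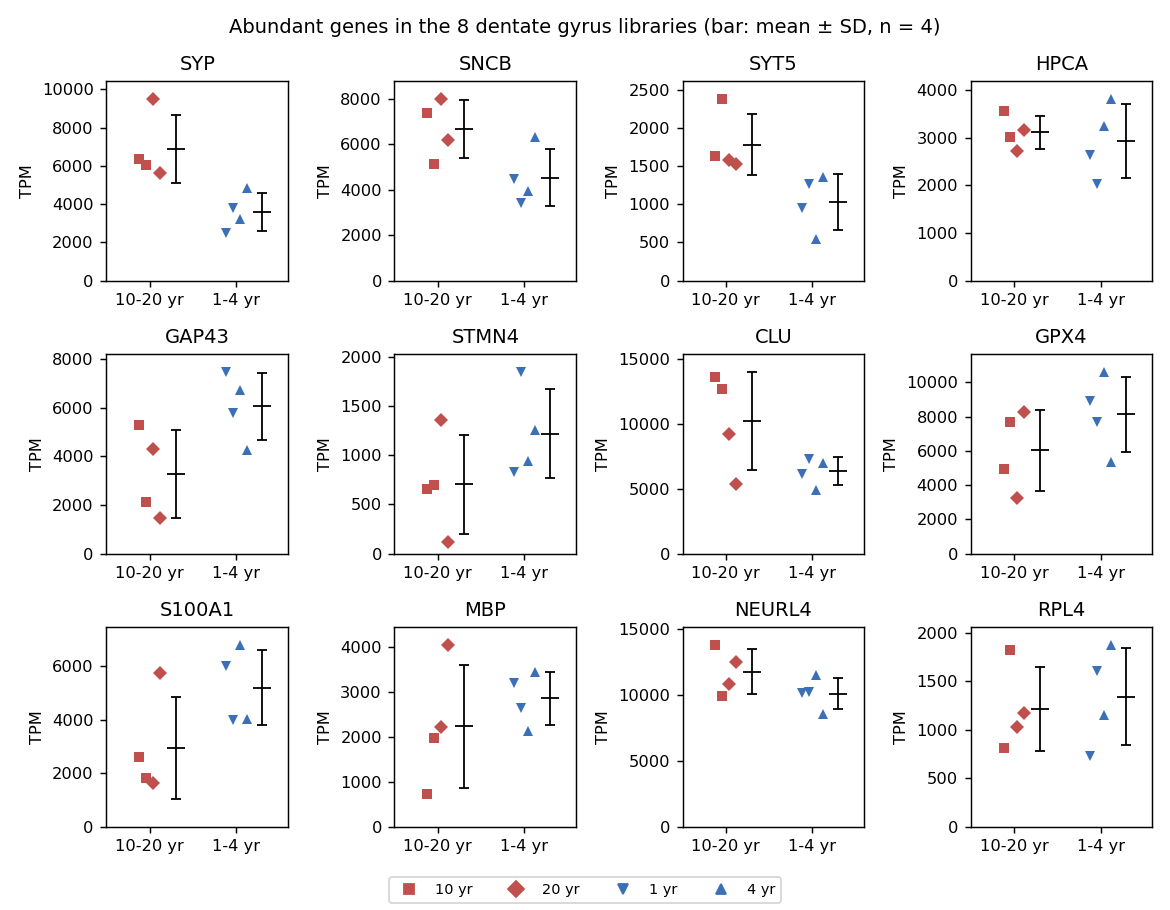
TPM of 12 abundant genes in each DG library, 10-20 yr left and 1-4 yr right in each panel, with the mean ± SD of 4 libraries as a bar and axes that start at 0. SYP and SYT5 do not overlap between the classes, SNCB and GAP43 overlap in part, and HPCA, NEURL4 and RPL4 overlap widely.

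Several abundant genes had most of their tags far from the annotated start. The largest TC of SYP held 73.3% of its TPM and lay 11157 nt after the start of a gene of 11995 nt. That of SNCB held 87.3% and lay 21757 nt into 27932 nt, and that of GPX4 held 71.9% and lay 36679 nt into 39427 nt. By contrast, GAP43 had 99.1% and CLU 88.3% of its TPM within 500 nt of the start. Whether the RNAs that start far inside a gene carry a cap was not tested. In the 358 genes listed in all libraries as a whole, 17 (4.75%) had no overlap between the classes, 7 of them higher and 10 lower at 10-20 yr, and 174 estimates lay above 0. The highest library held 15.4 times the TPM of the lowest in the median gene, and in only 6 genes was this ratio under 2.

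Gene groups were then read through 31 lists of cell type markers, pathways and gene families, of which 27 had a tested member. No list held a gene called at the adjusted threshold in limma, and counts at an unadjusted p under 0.05 follow where they are not 0. The median difference of a list changed sign under at least 1 alternative in 20 of the 27 lists, so the medians below give no settled direction. The 7 lists that kept their sign were receptors, potassium channels, zinc finger genes, translation factors, the vacuolar ATPase, histones and HMG proteins, and complement and antigen presentation genes. The summed TPM of a list did not overlap between the classes in 2 lists. Synaptic vesicle release genes summed to 14924, 12257, 18500.2 and 12678 TPM at 10-20 yr, in the order of libraries above, against 7711, 8802, 7663 and 11801 TPM at 1-4 yr. SYP and SNCB held most of this sum, and without both of them the other genes of the list summed to between 841 and 1164 TPM at 10-20 yr and between 525 and 1598 TPM at 1-4 yr, with overlap. The list's median difference over 9 tested genes was 0.52, beside 0.19 over all genes. STX1A, a SNARE protein of the presynaptic membrane, had 547, 587, 466 and 18.0 TPM against 582, 139, 72.5 and 57.7 TPM, and SYN1, synapsin of the vesicle surface, between 5.22 and 756 TPM and between 0 and 151 TPM.

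The axon growth and cytoskeleton list summed to 7782, 4826, 6483 and 3483 TPM at 10-20 yr, against 11213, 10107, 8844 and 8238 TPM at 1-4 yr. GAP43 held most of the sum. Without GAP43 the list had between 2035 and 2714 TPM at 10-20 yr and between 2129 and 4333 TPM at 1-4 yr, with overlap, and its median difference over 11 tested genes was -0.42. STMN4, a stathmin that binds tubulin, had 653, 698, 1357 and 119 TPM against 831, 1850 (1-yr male), 945 and 1263 TPM. CFL1, cofilin, which severs actin filaments, ranged from 0 to 383 TPM and from 159.8 to 751 TPM. MAP1B, a microtubule-associated protein, ranged from 118 to 1036 TPM and from 409 to 1166 TPM.

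For glutamate and GABA receptors the median difference was 1.72 over 8 tested genes of 26 in the table, none of which was listed in all libraries and 1 of which, GRIA1, was higher at an unadjusted p under 0.05. GRIA1, an AMPA receptor subunit, had 157, 154, 5.26 and 42.0 TPM at 10-20 yr, against 2.53 TPM in the 1-yr male and 0 in the other 3 younger libraries, without overlap (log2 difference 5.21 ± 1.50, adjusted p = 0.575 in limma). GRIA3, another AMPA receptor subunit, had 369, 72.7, 135 and 228 TPM against 0, 143, 9.63 and 47.3 TPM. GRIN1, the obligatory subunit of NMDA receptors, had 118, 136, 24.7 and 1.83 TPM against 0, 31.9, 0 and 0 TPM. The summed TPM of the list ranged from 412 to 1088 at 10-20 yr and from 208 to 733 at 1-4 yr. In the postsynaptic signalling list the median was 0.31 over 8 genes, and PPP1R1B, the dopamine-regulated phosphatase inhibitor, had between 263 and 627 TPM and between 332 and 637 TPM. Potassium channel genes had a median of 1.63 over 6 genes, with sums that overlapped (817 to 1638 TPM and 139.9 to 1563 TPM).

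Markers of granule neurons showed no common direction. NEUROD1, a transcription factor of young granule neurons, had 124, 73.3, 54.4 and 0 TPM at 10-20 yr, against 48.6 TPM in the 1-yr male and 0 in the other younger libraries. CALB1 had 482, 254, 454 and 0 TPM against 172, 475, 79.1 and 489 TPM, and C1QL2 75.1, 173, 0 and 25.6 TPM against 0, 154, 219 and 161 TPM. Of 16 markers of immature neurons and progenitors in the table, 13 were listed in DG and 3 were tested, with a median of -0.12. NNAT, neuronatin, had 590, 716, 572 and 984 TPM against 1066, 1405, 720.2 and 309.9 TPM. Some untested markers of this list were listed in 1 class only. STMN2, of growing axons, and MARCKSL1 were listed in 2 younger libraries each and DPYSL5 in 1 younger library. CRMP1 was listed in 3 older libraries, SOX4 in 2 older libraries, and CALB2, ELAVL4 and NES in 1 older library each. These are too few to read, and the markers were picked after their values were seen. SST, the peptide of a class of interneurons and the only interneuron marker tested, had 59.2, 65.3, 70.2 and 279.6 TPM against 392, 177, 488 and 225 TPM. Of the untested interneuron markers, GAD2 was listed in 2 older libraries, GAD1 and LHX6 in 1 older library each, SLC32A1 in 1 younger library and NPY in 2 older and 1 younger libraries, and without the filter the median of the 6 listed markers was 1.02. Fewer cells of a type and less RNA per cell cannot be told apart in such bulk tissue.

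Glial markers overlapped as well. GFAP, the intermediate filament of astrocytes, had 285, 371, 277 and 3.92 TPM at 10-20 yr, against 1046, 282, 562 and 638 TPM at 1-4 yr. ALDH1L1, a folate enzyme of astrocytes, had 562, 377, 478 and 134 TPM against 5.49, 246, 33.3 and 849 TPM. The 9 tested astrocyte genes had a median of 0.48, with 5 estimates above 0 and 4 below, and sums of 7254 to 15985 TPM and 6393 to 10948 TPM. The 7 tested oligodendrocyte genes had a median of 0.19, with sums of 884 to 4967 TPM and 3109 to 3632 TPM. CD68, a lysosomal protein of microglia, had 34.0, 49.4, 160.2 and 367 TPM at 10-20 yr, against 95.0 TPM in the 1-yr male and 0 in the other 3 younger libraries (log2 difference 5.01 ± 1.77, adjusted p = 0.831 in limma), and was the only marker of another cell type at an unadjusted p under 0.05. The other tested microglial gene, C1QC of the complement system, lay in the other direction, with 2.76, 7.10, 51.7 and 0 TPM against 211, 70.7, 117 and 7.67 TPM. The 7 microglial markers in the table summed to between 36.8 and 367 TPM and between 7.67 and 211 TPM. CSF1R, P2RY12, TYROBP and FCER1G were listed at 0 in all DG libraries.

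Ribosomal protein genes, respiratory chain genes and genes of the mitochondrial genome had medians below that of all genes. The 36 tested ribosomal protein genes had a median of -0.25, with 2 at an unadjusted p under 0.05 in each direction, and summed to 6640, 5804, 6478 and 10838 TPM at 10-20 yr, against 17367, 9917, 15792 and 16828 TPM at 1-4 yr. The classes overlapped through the 20-yr male and 1-yr male. RPS25 (33.7, 22.5, 57.5 and 5.74 TPM against 0, 12.3, 0 and 0 TPM) and RPSA (137, 110.3, 16.7 and 34.7 TPM against 0, 0, 78.0 and 0 TPM) lay in the opposite direction to RPLP2 and RPS16. RPL4, the steadiest abundant member, had 816, 1826, 1033 and 1175 TPM against 734, 1608, 1152 and 1876 TPM.

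The 28 tested nuclear genes of the respiratory chain had a median of -0.70, with 19 estimates below 0, 1 gene higher at an unadjusted p under 0.05 and sums of 5477 to 9306 TPM and 7802 to 13005 TPM. ATP5MC2, a subunit of the membrane ring of ATP synthase, had 253, 357, 816 and 333 TPM against 1435, 436, 1469 and 858 TPM. NDUFV1, a flavoprotein subunit of complex I, was the gene that was higher, with 139, 48.5, 22.0 and 0 TPM against 1.00 TPM in the 4-yr male and 0 elsewhere. Of 16 tested genes of the mitochondrial genome, 13 had estimates below 0, with a median of -0.87, and their sums overlapped (7129 to 14582 TPM and 8769 to 19511 TPM). The most abundant of them, ENSMMUG00000028701, had 4763, 4835, 3298 and 5415 TPM against 8244, 6689, 4212 and 8907 TPM. One of the 16, ENSMMUG00000028702, was lower at an unadjusted p under 0.05 (0, 0, 3.40 and 0 TPM against 0, 28.3, 313 and 107 TPM), and ENSMMUG00000028682 was higher without overlap (84.3, 751, 445 and 114 TPM against 14.99 to 71.8 TPM).

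The other lists had medians on both sides of that of all genes. Splicing factors (21 tested, median 0.03), redox genes (10, -0.04), translation factors (17, 0.87) and the proteasome (15, 0.59) each had at most 1 gene at an unadjusted p under 0.05. PSMC4, an ATPase of the proteasome cap, was that gene in its list, with 3.07, 0, 0 and 0 TPM at 10-20 yr against 363, 13.4, 76.3 and 1.33 TPM at 1-4 yr. Zinc finger genes had the highest median of the larger lists, 1.85 over 12 tested of 220 in the table, with none listed in all libraries, 1 gene (ZNF205) higher at an unadjusted p under 0.05 and sums of 1227 to 3803 TPM and 1363 to 1917 TPM. Solute carriers had a median of -0.87 over 14 genes, with 1 gene (SLC25A23) lower at an unadjusted p under 0.05, but of 0.41 without the 20-yr male, 0.46 without the filter and 4.10 over the 3 genes left with TCs near the start. SLC39A4, a zinc importer, was lower without overlap (2078, 1953, 439.8 and 2327 TPM against 3590 TPM in the 1-yr female, 2528, 2653 and 2819 TPM). Complement, antigen presentation and interferon genes had a median of -0.67 over 5 genes, heat shock genes 1.04 over 3 and calcium-binding genes -0.42 over 4. Of the 27 list medians, 15 lay above that of all genes. The lists hold genes that share libraries, so their medians are given without a test.

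**Figure D5:**
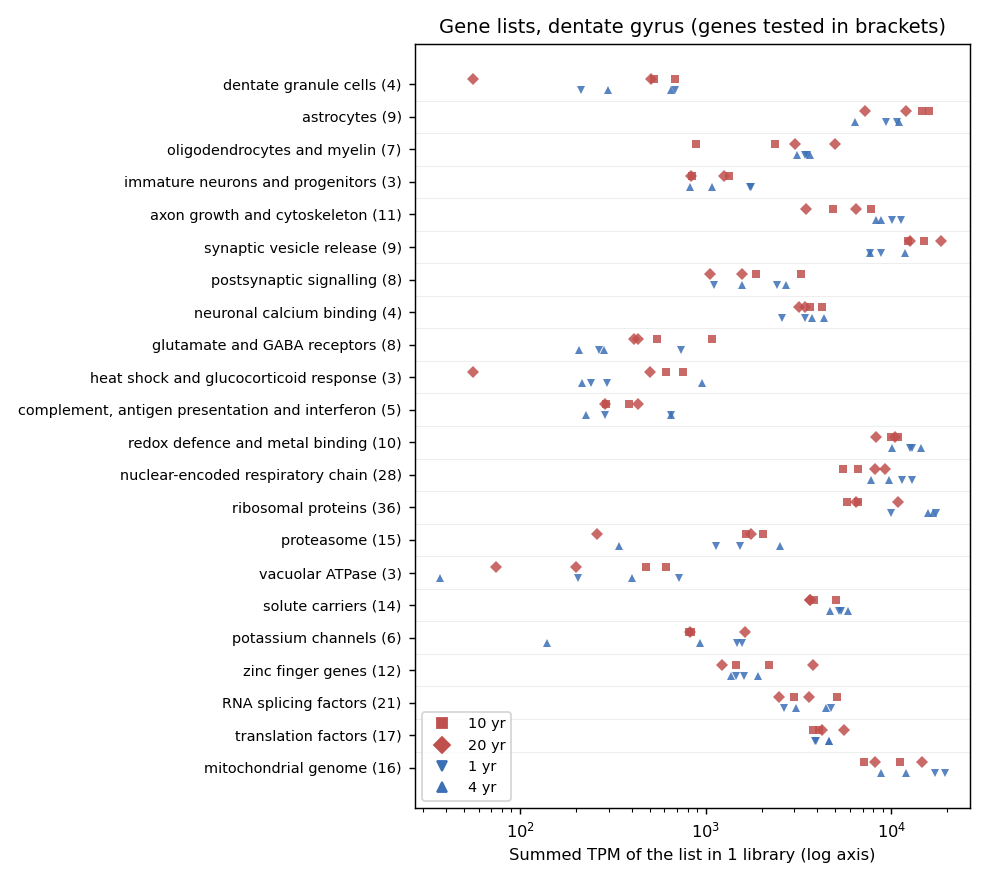
Summed TPM of each list with at least 3 tested genes (number in brackets), 1 point per DG library on a log axis, with the 10-20-yr libraries (red) above the 1-4-yr libraries (blue) in each row. The classes separate only for synaptic vesicle release (12257 to 18500.2 TPM at 10-20 yr, 7663 to 11801 TPM at 1-4 yr) and for axon growth and cytoskeleton (3483 to 7782 TPM, 8238 to 11213 TPM).

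The libraries themselves were compared by 5 measures. Genes listed averaged 2498 ± 1089.8 in the older class and 1950 ± 403 in the younger (SD, n = 4 each), a difference of 548 with a two-sided exact permutation p of 0.429. TCs listed averaged 4255 ± 2451 and 2963 ± 756 (exact permutation p = 0.429, n = 4 each). The share of a library's tags in listed TCs was 51.2% ± 3.87 and 55.6% ± 2.22 (exact permutation p = 0.143, n = 4 each). The share of listed TPM within 500 nt of the annotated start was 51.3% ± 2.90 and 53.4% ± 2.00 (exact permutation p = 0.229, n = 4 each), and the share of listed genes with more than 1 TC was 32.7% ± 7.95 and 28.2% ± 2.76 (exact permutation p = 0.371, n = 4 each). All 5 had an adjusted p of 0.429, and 4 against 4 libraries allow no p below 0.0286.

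The use of start positions within genes was tested in 107 genes with at least 2 TCs that were each listed in 4 or more DG libraries. None passed the adjusted threshold in limma's diffSplice (0%), the smallest adjusted p was 0.586 and 1 gene (0.935%) had an unadjusted p under 0.05. That gene was BEX1, an adaptor protein of neurotrophin signalling, on chromosome X. Its largest TC, at position 101611442 and 392 nt after the annotated start, had 2366 TPM in the 10-yr female and 0 in the other 3 older libraries, against 1334, 986, 983 and 1009 TPM in the 4 younger ones. The other older libraries listed TCs 387 nt after the start (1551 TPM in the 10-yr male, 867 TPM in the 20-yr male) and 380 nt after it (1509 TPM in the 20-yr female), which no younger library listed. Summed over TCs less than 20 nt from the largest, BEX1 had 2366, 1551, 1509 and 867 TPM at 10-20 yr against 1334, 986, 983 and 1009 TPM at 1-4 yr, and with nearby positions joined its adjusted p was 0.995. Without the 10-yr female the unjoined test passed, with an adjusted p of 0.0260, and leaving out any other library gave adjusted p-values from 0.365 to 0.992. BEX1 was named after its values were seen.

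Whether the age difference in the DG differed from that in other regions was tested on differences between libraries of the same age and sex. Between DG and CA1, the other hippocampal region, 0 of 1897 genes passed in limma (0%), the smallest adjusted p was 0.414 and 117 genes (6.17%) had an unadjusted p under 0.05. Between DG and the mean of the other 7 regions 0 genes passed (0%), the smallest adjusted p was 0.199 and 138 genes (7.27%) had an unadjusted p under 0.05. ATPAF2 was among the 5 genes of smallest p in both comparisons, and its age difference in DG exceeded that in CA1 by 8.68 ± 1.65 (SE, adjusted p = 0.414 in limma) and that in the other regions by 8.54 ± 1.60 (SE, adjusted p = 0.199) log2 units. ATPAF2 passed the filter only through the older DG libraries, so these values depend on the pseudocount and give no size: its difference within DG was 9.26 with a pseudocount of 0.25 TPM and 4.08 with 10 TPM. In CA1 this gene averaged 5.998 TPM at 10-20 yr and 7.45 TPM at 1-4 yr. SF3B2 had the smallest p against the other regions, by 9.04 ± 1.55 log2 units (SE, adjusted p = 0.199 in limma), with 3 of 4 younger DG libraries at 0.

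CD68 had a larger age difference in DG than in CA1 by 8.25 ± 1.80 log2 units (SE, adjusted p = 0.414 in limma), and was listed at 0 in all CA1 libraries of 10-20 yr and averaged 22.6 TPM in those of 1-4 yr. The mean of CD68 was also higher at 10-20 yr in posterior cingulate (285 and 60.6 TPM), prefrontal (223 and 43.9 TPM), temporal and cerebellar cortex. In occipital (11.7 and 77.65 TPM) and parietal cortex (68.4 and 105 TPM) this mean was lower at 10-20 yr. GUK1 averaged 181 TPM at 10-20 yr and 111 TPM at 1-4 yr in CA1. The order was the same in posterior cingulate (1634 and 549 TPM) and prefrontal cortex (857 and 131 TPM). It was also the same in temporal (604 and 32.4 TPM) and occipital cortex (261 and 90.1 TPM). In cerebellar cortex (143 and 748 TPM) and parietal cortex (26.2 and 146 TPM) the order was the other way. For SYP the difference between the age effects of DG and CA1 was 0.22 (adjusted p = 0.988) and for GAP43 -0.67 (adjusted p = 0.985 in limma) log2 units. The age differences of the DG are part of both region comparisons, so these share libraries with the main test.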

How the data were processed

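CAGE-seq values of the 8 DG libraries, and of the libraries of the other 7 regions for regional comparisons, were used as deposited. Per the study's methods, the authors aligned reads with TopHat2, kept unique alignments, took starts from the end of the read nearest the cap and joined starts under 20 nt apart within a library. The deposited TPM are RPM values (tags per 1000000 tags of the library, scaled by the authors) for each TC, and none above 0 is below 1 TPM. The study's methods name the build MMUL 1.0 from Ensembl, and the aligner's version is not given in the sources used here. Tags per library were read from the step between values, of which 99.2% to 99.97% were whole tags within 0.1 in each DG library.

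TPM was summed per gene. Genes at 1 TPM or more in at least 4 of the 8 libraries were compared on log2(TPM + 1) (pseudocount 1 TPM) with limma 3.58.1 in R 4.3.3, with sex as a term, two-sided, and Benjamini-Hochberg adjustment over all tested genes, at a threshold of 0.05. Fold changes on this scale understate those of low genes. Regional comparisons used the same model on differences between libraries of 1 age and sex. TC use was tested with diffSplice of limma, and library measures over all 70 arrangements. The fits were tested on simulated data, where falls came out smaller than they were made. Summaries and plots used pandas 2.3.3 and NumPy 2.4.6, with SciPy 1.17.1 and Matplotlib 3.10.9, under Python 3.11.15. The name table gave symbols to 1371 of the 1897 tested genes.

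Members, lists and tests were chosen with earlier results of these data known. Named genes had a symbol and were, since none was called, the 12 in each direction with the smallest p among those without overlap and with a mean of at least 10 TPM in the higher class. Up to 4 members of each list with the smallest p, its 3 most abundant tested members and the 5 genes of smallest p in each regional comparison were added. Alternatives were other pseudocounts, filters and scalings, a fit without sex, with an intensity trend or with log2 age, TCs within 500 nt of the start only, joined TCs, neocortical regions only and leaving out each library. Leaving out both the 1-yr female and the 20-yr male was added after the data were seen. Sequences were not analysed here, and 1 result on the ribosomal protein list is not reported here.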

Additional observations from a re-analysis of the deposited data

Results flagged for a closer look

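In 9 of 60 groups of 4 libraries checked, 1 library stood apart from the other 3 of its class. Chance gives about 1 in 20 groups for measures that were not selected, a rate that does not apply to 8 of the 9, which are genes named for the order of these same values, and 6 of them stand apart by construction because the other 3 libraries are at 0. The 1-yr female held 5470000 tags (5.47 when counted in units of 1000000 tags), against 2760000 to 3000000 tags in the other 3 libraries of 1-4 yr. In 6 of the genes named above, a single library of 1-4 yr was listed while the other 3 were at 0: GUK1 (1.00 TPM, 4-yr male), SEC62 (2.06 TPM, 4-yr female), SF3B2 (4.35 TPM, 1-yr male), STX8 (75.3 TPM, 4-yr female), NSG1 (5.07 TPM, 1-yr male) and DPF1 (5.84 TPM, 4-yr female). MRPS9 was listed at 0 TPM in the 1-yr male and at 1.46 to 1.72 TPM in the other 3 younger libraries. YBX1 was listed at 0 TPM in the 20-yr male and at 63.7 to 148 TPM in the other 3 older libraries.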

How the results depend on the processing

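No gene was called under 18 of 19 alternatives, where the smallest adjusted p ranged from 0.0594 (genes listed in all 8 libraries) to 0.689 (log2 age). An intensity trend in limma's variance gave 4 calls, all with lower log2 estimates at 10-20 yr and 1 of them (RPS14) in a gene list. These were RPS14 (adjusted p = 0.00459), RTF1 (0.00459), ENSMMUG00000016765 (0.00459) and UQCC2 (0.0267). RPS14 had 2010, 0, 11.8 and 3087 TPM at 10-20 yr against 7371, 137, 5012 and 5449 TPM at 1-4 yr, and RTF1 345, 38.4, 1840 and 13507 TPM against 4454, 4592, 3314 and 3928 TPM. Only ENSMMUG00000016765 did not overlap, and the cause was not tested. Of the 24 named genes, 1 turned round: NR1H2, with TCs within 500 nt of the start only, at 1.98, where few of its tags remain (8.29% of its TPM). Not all of the 24 could be tested under each alternative. PEX26, SF3B2, NSG1 and ARHGAP32 had 0% of their TPM within 500 nt of the start, so that alternative could not test their direction. The count at an unadjusted p under 0.05 was 241 of 6199 genes without a filter, 19 of 358 listed in all libraries and 46 of 1065 with TCs near the start. Leaving out 1 library gave 0 calls throughout, 79 to 152 genes at an unadjusted p under 0.05, and 0 to 1 genes for TC use (1 without the 10-yr female). It moved the genes-listed difference between 81.6 and 968 and the TCs-listed difference between 178 and 2144, in each case without the 10-yr male and without the 20-yr male, as for the share of listed genes that had several TCs (1.16 to 7.63 percentage points). The near-start share lay between -3.46 (without the 20-yr male) and -1.20 (without the 20-yr female) percentage points, and was -1.23 without the 1-yr female. The median difference of all genes lay between -0.12 (without the 10-yr male) and 0.77 (without the 20-yr male), and was 0.31 after median scaling and -0.00 after quantile normalization, so list medians are to be read beside it. List medians moved by more than the spread between libraries in 10 cases and by less in 511, and changed sign at least once in 20 of 27 lists. Synaptic vesicle release had -0.38 without the 10-yr male, axon growth and cytoskeleton 0.11 without the 20-yr female, and the respiratory chain 0.05 without the 20-yr male. No paired analysis was possible because the labels give no replicate numbers, and numbers were assigned in accession order. Libraries were paired only across regions, by age and sex. The 4 libraries per class, the 27.7% of values at 0 and the floor of 1 TPM limit what these data can show.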
